A study of Mus musculus with 3 samples.

Results

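*Perp*, *Ehf* and *Cst6* are 3 genes that are best known from epithelia, and they were described here in ATDC5 cells, a mouse chondroprogenitor line derived from a teratoma that forms cartilage-like nodules in culture. They were chosen by name, after earlier results of the same arrays had placed them among the genes with the largest decrease upon *Tet1* knockdown (KD), and each had 1 named probe set, so that 3 of 35512 probe sets, or 3 of 1196 named genes, are the subject here. The choice therefore used the difference between the knockdown and control arrays, and those differences are given below as a description with no test. There were 3 arrays analysed here, all from cells labelled wild-type, transduced with a lentiviral short hairpin RNA at day 0 and cultured with insulin, transferrin and selenium for 15 days. The nontarget (NT) group was 1 array, and the *Tet1* KD group was 2 arrays, 1 with the hairpin Tet1sh1 and 1 with Tet1sh2, called hairpin 1 and hairpin 2. According to the methods of the study, transduced cells were selected with puromycin before differentiation, also in the NT control. The array numbers in the authors' comparison leave a gap, and a filter in the study's methods counts more arrays than the 3 here. The authors' set therefore appears to have held another array, which was not analysed here.

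*Perp* encodes a small tetraspan membrane protein of the PMP22 family, which sits in desmosomes, the junctions that anchor the keratin filaments of neighbouring epithelial cells, and its transcription is induced by p53 and p63. *Ehf* encodes an ETS transcription factor of epithelial cells, in which it takes part in differentiation. *Cst6* encodes cystatin E/M, a secreted inhibitor of the lysosomal proteases legumain and cathepsin L, which in mouse skin and hair follicles is needed for normal cornification. None of the 3 is a usual marker of cartilage. In its microarray results the study counts *Cst6*, as it does *Acan*, among the targets of the transcription factor SOX9 that fell upon *Tet1* knockdown.

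The deposited intensity is a linear value per probe set, already normalized across arrays. Its median was 304.6 units in the NT control, against 279.6 and 264 units with hairpins 1 and 2. *Tet1*, the targeted gene, had 3 named probe sets, and their intensity under the hairpins was between 36.4% and 52.8% of that in NT. None of the 3 passed limma, the linear model described below (limma adjusted p = 0.133, 0.186 and 0.164). With 1 NT array, the NT level has no replicate error and no hairpin has a second culture, so precision is limited by how few arrays there are. In bulk RNA, fewer cells that express a gene and less RNA per cell cannot be told apart.

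*Perp* was lower under both hairpins and differed little between them. Its probe set (10361887) had an intensity of 2276 units in the NT control, against 261 and 233 units with hairpins 1 and 2. The NT array stood 2015 units above the higher of the *Tet1* KD arrays, which were 28.7 units apart. Relative to NT, 11.5% of the intensity remained under hairpin 1 and 10.2% under hairpin 2. The mean under knockdown was 247 ± 20.3 units (SD, n = 2), a decrease of 9.21-fold, and the log2 difference was -3.12 under hairpin 1 and -3.29 under hairpin 2. Among the 27311 probe sets whose mean over the arrays reached 100 units, 1 had a larger mean decrease on the log2 scale.

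*Cst6* was also lower under both hairpins, and here the level differed more between the hairpin arrays. Its probe set (10464999) had an intensity of 1727 units in the NT control, against 285 and 174 units with hairpins 1 and 2. Both knockdown values lay far below NT, and that of hairpin 2 was 38.7% below that of hairpin 1. The mean under knockdown was 230 ± 77.9 units (SD, n = 2), with 16.5% of the NT intensity remaining under hairpin 1 and 10.1% under hairpin 2. The log2 differences were -2.60 and -3.31, and 3 probe sets had a larger mean decrease.

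*Ehf*, the transcription factor of the group, showed the smallest mean decrease of the 3 on the log2 scale. Its probe set (10485445) had an intensity of 1479.7 units in the NT control, against 254 and 193 units with hairpins 1 and 2. The values under knockdown did not come near the NT value, and the mean under knockdown was 223 ± 43.5 units (SD, n = 2). The intensity was 17.2% of that in NT under hairpin 1 and 13.0% under hairpin 2, with log2 differences of -2.54 and -2.94. By the mean log2 difference, 8 probe sets were lower. All 3 genes were at least 2.5-fold lower under both hairpins with a mean difference of over 100 units, as were 0.239% of all probe sets, a count that the choice of the genes fixes. Among the 1196 named genes, ordered by their decrease, *Perp* was the second, *Cst6* the fourth and *Ehf* the eighth.

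**Figure D1:**
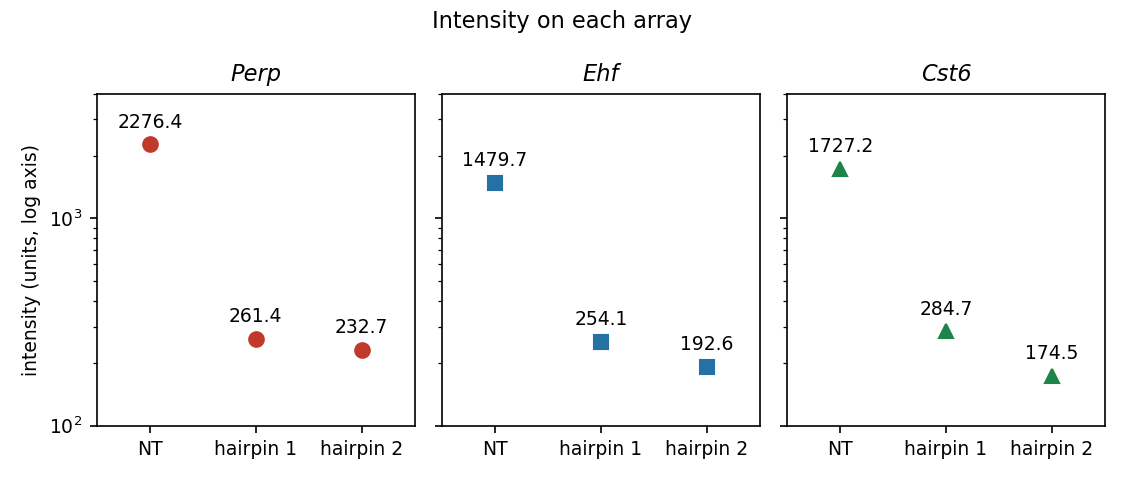
Intensity of *Perp*, *Ehf* and *Cst6* (units, log axis) on the NT array and on the arrays of hairpin 1 and hairpin 2, with 1 point per array and no error bars. NT is the highest array in each panel, at 1479.7 to 2276 units, and the *Tet1* KD arrays lie between 174 and 285 units.

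All 3 genes stayed above 100 units on every array, so none passed the filter on dim probe sets through NT alone, and setting all values under 50 units to 50 left their differences as they were. The deposited comparison also gives a standard error for the NT intensity, which comes from the probes within 1 array and not from replicate cultures. It was 11.7 units for *Perp* and 11.9 units for *Cst6*, or 0.51% and 0.69% of the NT intensity. For *Ehf* it was 105 units, or 7.11%, the largest of the 3 on that array. The distance from NT to the nearest knockdown array was 1226 units for *Ehf*, 1443 units for *Cst6* and 2015 units for *Perp*.

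The difference between the hairpins was not used to choose the genes. With 1 array per hairpin it has no test, hairpin and culture cannot be told apart, and it is described against all probe sets. Hairpin 2 was lower than hairpin 1 for each of the 3, with a log2 difference (hairpin 2 minus hairpin 1) of -0.17 for *Perp*, -0.40 for *Ehf* and -0.71 for *Cst6*. Over the 27311 probe sets the median absolute difference between the hairpins was 0.26, and 54.6% of them were lower under hairpin 2, so a lower value under hairpin 2 is close to the background. A larger absolute difference than that of *Perp* was found in 66.0% of the probe sets, than that of *Ehf* in 32.1% and than that of *Cst6* in 10.9%. Among the 487 named genes with a lower mean under knockdown, which the authors had selected on these arrays, these shares were 54.0%, 21.1% and 5.54%. After each array was centred on its median, the difference between hairpins became -0.08 for *Perp*, -0.32 for *Ehf* and -0.62 for *Cst6*. The decrease relative to NT was 19.1 times the difference between hairpins for *Perp*, 6.86 times for *Ehf* and 4.18 times for *Cst6*, on the log2 scale. Unlike the difference between hairpins, that decrease was used to choose the genes. Large ratios therefore follow from the choice and do not measure precision.

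**Figure D2:**
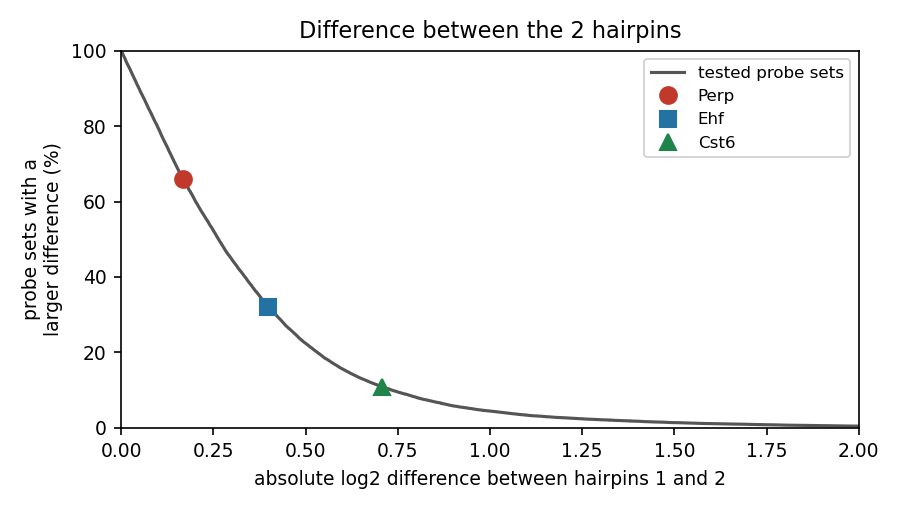
Share of the 27311 probe sets (%) with a larger absolute log2 difference between hairpin 1 and hairpin 2 than the value on the x axis, which is drawn up to 2. *Perp*, *Ehf* and *Cst6* are marked on the curve at 66.0%, 32.1% and 10.9%.

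The order of the decreases differed between the hairpin arrays. Under hairpin 1 *Perp* was the lowest relative to NT, and its log2 difference minus that of *Cst6* was -0.52 and minus that of *Ehf* -0.58, while *Cst6* minus *Ehf* was -0.06. Under hairpin 2 *Perp* minus *Cst6* was 0.02, and *Ehf* had the smallest decrease, with *Perp* minus *Ehf* at -0.35 and *Cst6* minus *Ehf* at -0.37. All of these values share the NT array. Averaged over the hairpins, *Perp* minus *Ehf* was -0.46, larger in size than the differences between hairpins of these genes (-0.17 and -0.40). The averages of *Perp* minus *Cst6* (-0.25) and *Cst6* minus *Ehf* (-0.21) were smaller in size than the -0.71 between the hairpins for *Cst6*. None of these differences was tested.

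The named genes with the most similar pattern were taken as those with the smallest distance in the pair of log2 differences, over the 3 arrays. Nearest to *Perp* was *Frzb*, a secreted Wnt antagonist, at a distance of 0.12, followed by *Cthrc1*, *Acan*, *Scrg1* and *Hsd11b1*. *Frzb* had an intensity of 935 units in the NT control, against 116 and 98.4 units with hairpins 1 and 2. Nearest to *Cst6* was *Acan*, which encodes aggrecan, a large proteoglycan of cartilage, at a distance of 0.17, followed by *Frzb*, *Ppargc1a*, *Cthrc1* and *Gna14*. *Acan* had an intensity of 1427 units in the NT control, against 223 and 160.3 units with hairpins 1 and 2, and thus also had its lower value under hairpin 2. Nearest to *Ehf* was *Ppargc1a*, a transcriptional coactivator of mitochondrial genes, at a distance of 0.19, followed by *Gna14*, *Hsd11b1*, *Acan* and *C1qtnf3*. *Ppargc1a* had an intensity of 629 units in the NT control, against 122 and 86.5 units with hairpins 1 and 2. *Acan* was therefore among the 5 nearest genes of each of the 3. The distance uses the same differences from NT by which the 3 genes were chosen. Neighbours with large decreases therefore follow from that choice, and a shared neighbour is only a description. The 3 genes themselves were 0.37 (*Ehf* and *Cst6*), 0.52 (*Perp* and *Cst6*) and 0.68 (*Perp* and *Ehf*) apart. Nearer than the closest other member were 4 named genes for *Perp* and 6 for *Ehf*. For *Cst6* it was 1, *Acan*.

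**Figure D3:**
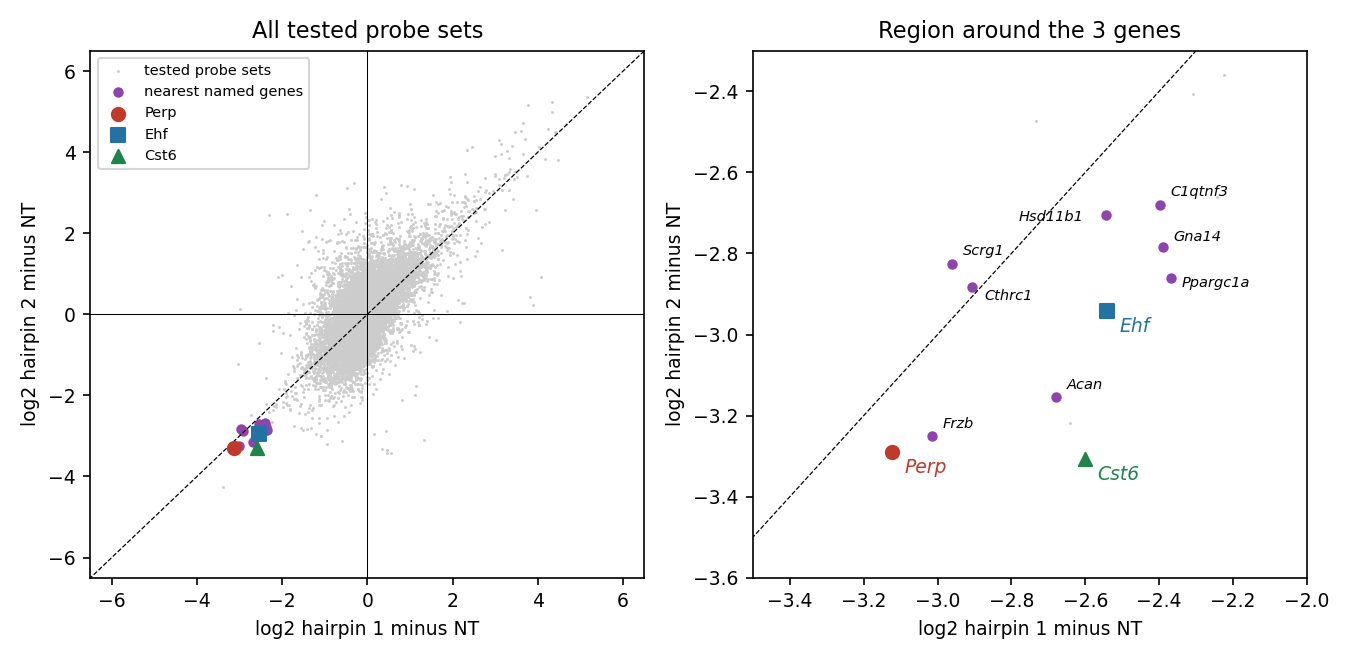
Log2 difference of hairpin 1 from NT (x axis) and of hairpin 2 from NT (y axis) for the 27311 tested probe sets (grey), the nearest named genes (purple) and *Perp*, *Ehf* and *Cst6*, with the right panel enlarging the region around them. Both axes share the NT array, and the dashed line marks equal values. *Perp* lies close to *Frzb*, and *Cst6* lies farthest below the dashed line of the 3 genes.

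Because the 3 genes are grouped by their link to epithelia, other epithelial genes were examined. Gene names came from the authors' comparison alone, which names only probe sets that differed between NT and knockdown, so the genes without a name there were not analysed here. Of 38 genes of epithelial cell identity, 3 were named, and besides *Ehf* these were *Cldn1* and *Sfn*. *Cldn1*, a tight junction protein, had an intensity of 147 units in the NT control, against 296 and 249.9 units with hairpins 1 and 2, with a log2 difference of 0.89 that did not pass limma across all tested probe sets (adjusted p = 0.419). *Sfn*, a 14-3-3 protein of epithelia that p53 induces, had an intensity of 725 units in the NT control, against 328 and 366 units with hairpins 1 and 2 (log2 difference -1.07, limma adjusted p = 0.198). The values of these genes thus lay on opposite sides of NT. The keratins of simple and basal epithelia, *Cdh1* and *Epcam* were among the 35 not analysed here, so the files do not show whether the cells had an epithelial profile.

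Across all 27311 tested probe sets, 0.388% passed limma as lower under knockdown and 1.36% as higher. Among the 1194 named genes tested, which had been selected for a difference, the shares were 7.12% and 25.8%. With no filter on dim probe sets, 0 probe sets passed in either direction, so every limma call given here depends on that filter. Of 19 desmosomal genes, *Perp* and *Ppl* were named. *Ppl*, which encodes periplakin, a protein that links desmosomes to keratin filaments, had an intensity of 187 units in the NT control, against 497 and 618 units with hairpins 1 and 2. Both knockdown arrays were above NT, opposite to *Perp*, and *Ppl* rose by 1.57 ± 0.37 (SE) in log2 units (limma adjusted p = 0.0452). It no longer passed with log2(value + 32) (limma adjusted p = 0.0535) or after quantile normalization (0.0843). Of 20 cornified envelope genes, *Cst6* and *Krt10*, a keratin of the upper epidermis, were named. *Krt10* had an intensity of 1088 units in the NT control, against 585 and 485 units with hairpins 1 and 2, and did not pass (log2 difference -1.03, limma adjusted p = 0.189).

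Of 30 p53 targets and p53 family genes, 5 were named, *Perp* and 4 others that were above NT under both hairpins. *Fas*, a death receptor, had an intensity of 839 units in the NT control, against 2495 and 2321 units with hairpins 1 and 2, and rose by 1.52 ± 0.28 (SE) in log2 units (limma adjusted p = 0.00977). That call was lost after quantile normalization (limma adjusted p = 0.0533). *Plk2*, a kinase, *Tnfrsf10b*, a receptor of the TRAIL ligand, and *Sesn2*, a sestrin of the stress response, had log2 differences of 1.04, 0.94 and 0.91 and did not pass (limma adjusted p = 0.069, 0.122 and 0.299). The median log2 difference of the 4 other genes was 0.99, against -0.12 over all tested probe sets. These backgrounds are unlike, since named genes had been selected for a difference. Of the 1196 named genes, 709 had a higher mean under knockdown. The other 25 genes of the list were not analysed here, so the direction of p53 targets as a group is not known. *Perp* was below NT, as was *Sfn*, which p53 also induces but which was kept on the epithelial list. With *Sfn* included, 1 of the 5 other genes was below NT and the median log2 difference was 0.94.

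Of 26 ETS family genes, *Ehf* and *Fli1* were named. *Fli1*, an ETS factor of blood and endothelial cells, had an intensity of 191 units in the NT control, against 373 and 472 units with hairpins 1 and 2, with a log2 difference of 1.13 that did not pass (limma adjusted p = 0.199). *Elf3* and *Elf5*, the epithelial ETS factors most closely related to *Ehf*, were not analysed here. Of 21 genes of the cystatin superfamily, 3 were named. *Kng2*, a kininogen, which carries cystatin domains and is otherwise known as the precursor of kinins, had an intensity of 671 units in the NT control, against 101 and 121 units with hairpins 1 and 2. It fell by 2.60 ± 0.40 (SE) in log2 units (limma adjusted p = 0.00257), and, unlike *Cst6*, was higher under hairpin 2 than under hairpin 1. *Cst9* had an intensity of 1401 units in the NT control, against 827 and 802 units with hairpins 1 and 2 and did not pass (log2 difference -0.78, limma adjusted p = 0.331). None of the 15 cathepsin and legumain genes, which include the targets of cystatin E/M, was named, and *Perp* was the 1 named gene of 17 tetraspan genes of the PMP22 and claudin-like families.

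**Figure D4:**
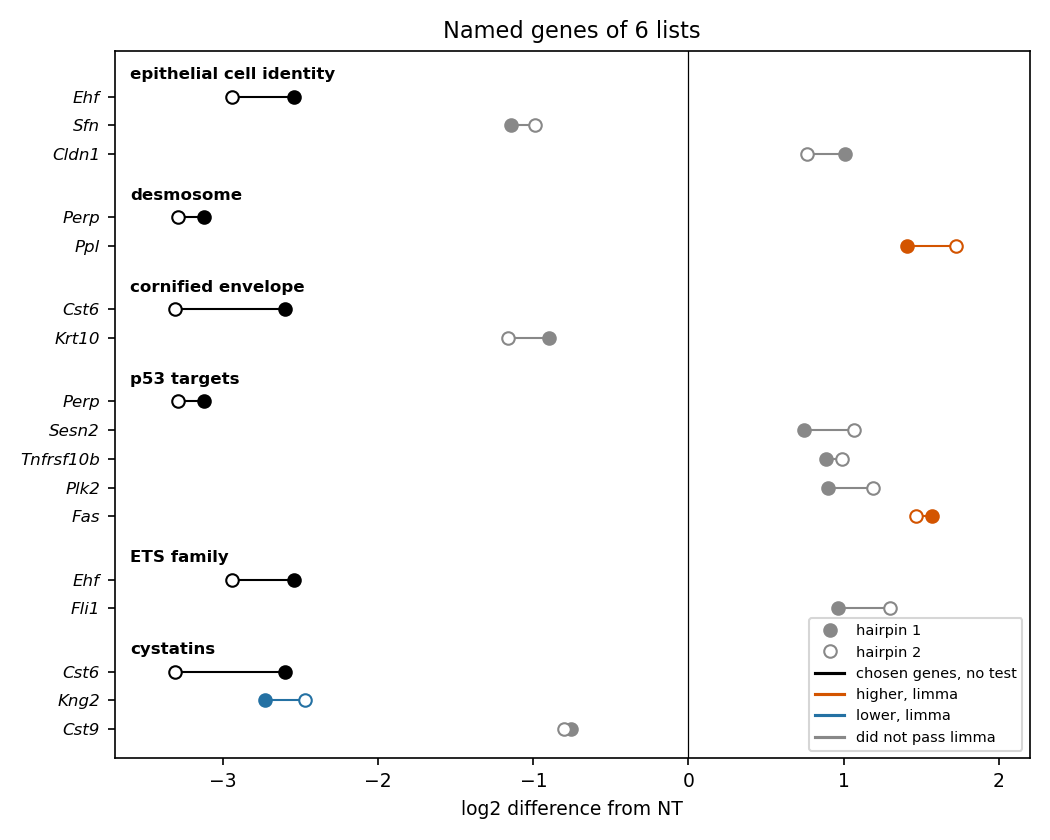
Log2 difference from NT under hairpin 1 (filled) and hairpin 2 (open) for the named genes of 6 lists, with the chosen genes in black and the others coloured by their limma call. *Perp* and *Ppl* of the desmosome list lie on opposite sides of 0, and the other p53 targets lie between 0.74 and 1.57.

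Named markers of other cell types also differed between NT and knockdown, in both directions, and their part in the decreases of the 3 genes was not tested. Of 18 cartilage matrix genes, 8 were named, of which 5 fell and 2 rose in the limma test. *Scrg1* was under 100 units on both knockdown arrays and *Prg4* in NT, so these genes reached the required mean through the other group alone, and without them 4 fell and 1 rose. The summed intensity of the 8 genes went from 14156 units in the NT control to 9644 and 10674 units with hairpins 1 and 2. That sum mixes both directions. *Cytl1* rose from 1482 to 4439 and 5910 units, while *Col2a1* fell from 4914 to 2279 and 1414 units. The cartilage sum therefore understates the fall of the genes that fell and does not describe their order between hairpins. Of 20 mesenchymal genes, 6 were named, all above NT under both hairpins, and the other 14 were not analysed here. Of the 6, *Pdgfra* and *Dpt* rose in the limma test and the others did not pass. Their summed intensity went from 11196 units to 24333 and 21385 units. Named genes had been selected for a difference, and 709 of all 1196 had a higher mean under knockdown. Among those tested, 7.12% passed limma as lower and 25.8% as higher. Of 12 leukocyte genes, 10 were not analysed here, and of the 2 named, *Cd68* fell and *Lyz2* rose. Their summed intensity went from 4912 units to 3432 and 2220 units, but *Cd68* made up 4424 units of the NT sum, and *Lyz2* went from 488 to 1974 and 1400 units, so the sum does not describe both genes. Of 10 adipocyte genes, 8 were not analysed here, and the 2 named, *Fabp4* and *Ppargc1a*, fell. Their sum went from 1467 units to 301 and 249.8 units. After quantile normalization the calls of *Col2a1*, *Hapln1*, *Vcan*, *Prg4*, *Pdgfra*, *Cd68* and *Lyz2* were lost, and after median centring those of *Col2a1*, *Hapln1* and *Vcan*. No endothelial or muscle gene of the lists was named, and no named marker was at 0.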

How the data were processed

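Total RNA of the 3 cultures was hybridized by the authors to Affymetrix Mouse Gene ST arrays, which carry probes along whole transcripts. The deposited intensity values were made in dChip, with normalization to an invariant set of probes and model-based expression per probe set, on a linear scale. The build named in the submitters' processing notes is mm9. Since the gene table used here is of assembly GRCm38.p6, it served only for names and gene order, and no coordinates are given. Of 1524 probe sets in the authors' comparison 1330 carried a name, and 1084 of these were matched by accession, 112 by symbol and 75 by an older symbol. The authors' fold changes, bounds and differences in that file were not used.

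Values were raised to a floor of 10 units before taking log2. A log2 difference is the mean of the *Tet1* KD arrays minus NT. A linear model was fitted with limma 3.58.1 in R 4.3.3 (lmFit, then eBayes allowing for an intensity trend) to the 27311 probe sets whose mean over the arrays reached 100 units, two-sided, with Benjamini-Hochberg adjustment over all of them and a threshold of 0.05. The fit has 1 residual degree of freedom and takes the spread of the single NT array to be that of the *Tet1* KD arrays. The error behind the p-values and SE therefore comes only from how far these 2 arrays differ, which may be technical. In eBayes the spread of each probe set is drawn towards that of the tested probe sets at its intensity. The fit was tested on simulated data. The genes named were the 3 members, *Tet1*, all named genes of the lists and the 5 nearest genes of each member, with the probe set of highest mean log2 intensity per gene. The members and lists were chosen with earlier results of these data known. Alternatives were log2(value + 32), a floor of 50 units, other filters on dim probe sets, no intensity trend, quantile normalization, median centring and leaving out a hairpin.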

Additional observations from a re-analysis of the deposited data

How the results depend on the processing

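All 3 genes stayed below NT under each alternative tried for them. Without one or the other hairpin, the log2 difference ranged from -3.29 to -3.12 for *Perp*, from -2.94 to -2.54 for *Ehf* and from -3.31 to -2.60 for *Cst6*. For *Perp* it moved by more than 1 SD of the *Tet1* KD arrays (0.12) with log2(value + 32), to -3.05, and with median centring, to -3.04. Hairpin 2 stayed below hairpin 1 for all 3 genes. The limma test called 478 probe sets, 106 lower and 372 higher. After quantile normalization it called 222, of which 34 were lower and 188 higher, and after median centring 353, of which 37 were lower. Without an intensity trend it called 108, of which 21 were lower and 87 higher, and with a minimum mean of 200 units 775, of which 222 were lower. With no filter on dim probe sets, limma called 0 probe sets in either direction, with 2229 at an unadjusted p under 0.05. The cause was not tested. Of 29 other genes on the lists, 16 passed limma. Of these, 9 no longer did after quantile normalization, 3 after median centring and 1 with log2(value + 32). With no filter on dim probe sets, none of the 16 passed, and without an intensity trend their calls were not counted. None of the 29 changed direction under quantile normalization, median centring or log2(value + 32). The alternatives for the 5 nearest genes were chosen after seeing the data. The same 5 were nearest for all 3 members after median centring. After quantile normalization 5 were kept for *Perp* and 4 each for *Ehf* and *Cst6*, and with log2(value + 32) 4 were kept for *Perp* and 3 each for *Ehf* and *Cst6*. No limma test is possible without a hairpin, since no residual degree of freedom is left. No paired analysis was possible, because there was 1 NT array and no label pairs it with a *Tet1* KD array.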

Other observations

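The genes next to *Perp*, *Ehf* and *Cst6* in the genome were also looked up, a choice made after the data had been seen. Among the 5 protein-coding genes on each side of each, in the gene order of assembly GRCm38.p6, 2 of 30 were named, and the others were not analysed here. *Tnfaip3*, which encodes the NF-kB inhibitor A20 and is the gene next to *Perp*, had an intensity of 2408 units in the NT control, against 4521 and 4992 units with hairpins 1 and 2. It was above NT where *Perp* was below it, with a log2 difference of 0.98 (limma adjusted p = 0.0436), and the call was lost after quantile normalization (0.111) and median centring (0.0503). *Cd44*, which encodes a hyaluronan receptor and is the third gene on one side of *Ehf*, had an intensity of 3831 units in the NT control, against 6869 and 6974 units with hairpins 1 and 2. Its log2 difference was 0.85 (limma adjusted p = 0.0453), and the call was lost after quantile normalization (0.0829). No neighbour of *Cst6* was named.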
